A study of Mus musculus with 16 samples.

Results

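A set of 8 genes makes up the biliary and progenitor marker set described here: Sox9, Sox4, Bicc1, Prom1, Epcam, Cd24a, Spp1 and Cftr. They were taken by exact gene name from both tables of gene counts, and all 8 members were found among the 24421 rows of each table. They are markers of bile duct cells and of liver progenitor cells, keratins left aside. Whole mouse liver RNA was sequenced in 16 libraries that form 4 groups of 4. DKO livers carried floxed ARID1A and floxed ARID1B on both copies together with Alb-Cre, and DKO control livers carried the same 4 floxed copies without Cre. BKO livers carried floxed ARID1B on both copies with Alb-Cre, and BKO control livers carried those copies without Cre. Every group, controls included, thus has floxed Arid1b, and no group lost Arid1a alone. Alb-Cre drives the recombinase from the albumin promoter, which is active in hepatocytes and in the embryonic cells that give rise to hepatocytes and bile duct cells. All knockout animals carried Cre and all controls lacked it, so Cre and the deletion cannot be told apart. The labels used here give no age, sex or strain. BKO controls F5 and F5-2 share a tag, so these libraries may come from 1 animal, and n = 4 for BKO controls counts libraries. Libraries are named by the animal tags of the labels, in which WT marks the Cre-negative controls of the DKO experiment.

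Cholangiocytes are the epithelial cells that line the bile ducts, and they modify bile by secreting chloride, bicarbonate and water. In the embryo they arise with hepatocytes from a common precursor, the hepatoblast, under the control of Notch signalling and of SOX9 and SOX4. In injured livers, small ducts and cells with both biliary and hepatocyte features can multiply, which is known as the ductular reaction. The BAF complex, a chromatin remodeller that uses ATP to move nucleosomes, contains either ARID1A or ARID1B. In whole liver RNA, a change in the number of cells of a type and a change in RNA per cell cannot be told apart.

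Promoter sequence is shown for Prom1, Spp1 and Sox4, to show the sequence at the start of genes that rose. These members passed the filter on low counts, rose in DKO livers and have an entry in the RefSeq promoter table used here (GRCm38.p6). Epcam and Cftr also have entries but did not pass that filter in the DKO experiment, and their windows are not printed. Entries were matched by symbol for 5 of the 8 members. Each line gives the 250 bases before the annotated start, 5′ to 3′ on the strand of the gene, with letters in capitals where a searched motif matched. The windows are chr5:44101737-44101986 on the minus strand for Prom1, chr5:104434861-104435110 on the plus strand for Spp1 and chr13:28953700-28953949 on the minus strand for Sox4.
Prom1: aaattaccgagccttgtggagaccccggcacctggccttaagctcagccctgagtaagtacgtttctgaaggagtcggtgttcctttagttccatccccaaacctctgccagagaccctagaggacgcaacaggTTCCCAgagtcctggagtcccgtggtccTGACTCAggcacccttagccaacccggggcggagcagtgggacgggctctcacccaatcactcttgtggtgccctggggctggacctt
Spp1: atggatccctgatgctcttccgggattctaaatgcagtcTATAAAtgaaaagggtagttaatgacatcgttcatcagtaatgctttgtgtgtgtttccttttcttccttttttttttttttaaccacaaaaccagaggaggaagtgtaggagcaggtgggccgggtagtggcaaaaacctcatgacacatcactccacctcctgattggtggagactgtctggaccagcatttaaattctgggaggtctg
Sox4: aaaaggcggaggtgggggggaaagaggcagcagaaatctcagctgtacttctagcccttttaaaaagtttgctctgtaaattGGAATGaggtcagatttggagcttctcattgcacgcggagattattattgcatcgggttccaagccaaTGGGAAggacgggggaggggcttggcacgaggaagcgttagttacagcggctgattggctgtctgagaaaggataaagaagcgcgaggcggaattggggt
A set of 6 motifs was searched on both strands, and the share of 32851 mouse promoter windows of the same length with a match is given for each. The AP-1 letters TGANTCA, found in 6.75% of windows, matched Prom1 88 to 82 bases before the start. The RBPJ letters TGGGAA, bound by the DNA-binding partner of Notch and found in 21.59% of windows, matched Prom1 on the opposite strand 116 to 111 bases before the start and Sox4 100 to 95 bases before it. The TEAD letters GGAATG (12.64%) matched Sox4 168 to 163 bases before the start. The TATA box TATAAA (12.37%) matched Spp1 211 to 206 bases before the start. The E-box CACGTG (6.02%) and the SOX letters ACAATG (10.69%) matched none of these 3 windows, and the Epcam and Cftr windows held no match to any motif. The matches do not overlap one another. A match is a string of letters in this window and was not measured as a binding site. The 3 windows also differ in composition, with 59.2% G and C in Prom1, 50.8% in Sox4 and 43.6% in Spp1, against a median of 52.4% over all windows. The annotated start of Prom1 in this table lies 296 bases inside the 5′ end of the gene in GENCODE M21, so its window belongs to a downstream start.

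The targeted genes were read first. In BKO livers Arid1b fell to 44.3 ± 3.98 CPM (counts scaled to the normalised library size; SD, n = 4) from 84.8 ± 2.01 in controls. In DKO livers it fell to 60.0 ± 13.7 CPM from 89.3 ± 9.17 (log2 fold change -0.57 ± 0.16 SE, edgeR adjusted p = 0.0167), a call that was lost without library DKO-7068 (adjusted p = 0.0515). Arid1a was at 108 ± 6.08 CPM in DKO livers and 124 ± 10.2 in their controls, with an edgeR adjusted p of 0.149. Counts over a whole gene do not show whether the floxed exons are gone. Library totals were 8699417 to 11031443 counts for DKO livers with their controls, and the BKO set was deeper, at 21151726 to 40551934 counts. Libraries DKO-7068 and DKO-7070 were closer to each other than any other pair of the experiment, at 6.92 for the chi-square over its degrees of freedom, where the other pairs of a group had 25.4 to 56.1. They differed by more than counting error and carry separate tags, but such a difference does not show that they come from separate animals. Thus n = 4 for DKO livers also counts libraries. The hepatocyte markers were the most abundant marker list, with summed levels of 59105 to 90432 CPM in DKO livers and 113071 to 139779 CPM in their controls.

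In DKO livers, 5 of the 6 members that could be tested rose, and none fell. Over all 12848 genes tested 35.8% were called, 19.2% as higher and 16.6% as lower. The groups did not overlap for 4 of these members, all higher in DKO, a separation seen for 18.5% of all genes in that direction and 16.9% in the other. Genes were called at an adjusted p under 0.05 in edgeR's quasi-likelihood test with Benjamini-Hochberg adjustment over all genes tested. The median log2 fold change of the 6 tested members was 2.11, against 0.02 over all genes. Each of these 6 members passed the filter on low counts in all 8 libraries of the experiment. Epcam and Cftr had 3 libraries at the required level, all from DKO livers, where 4 were needed, so they were not tested.

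**Figure D1:**
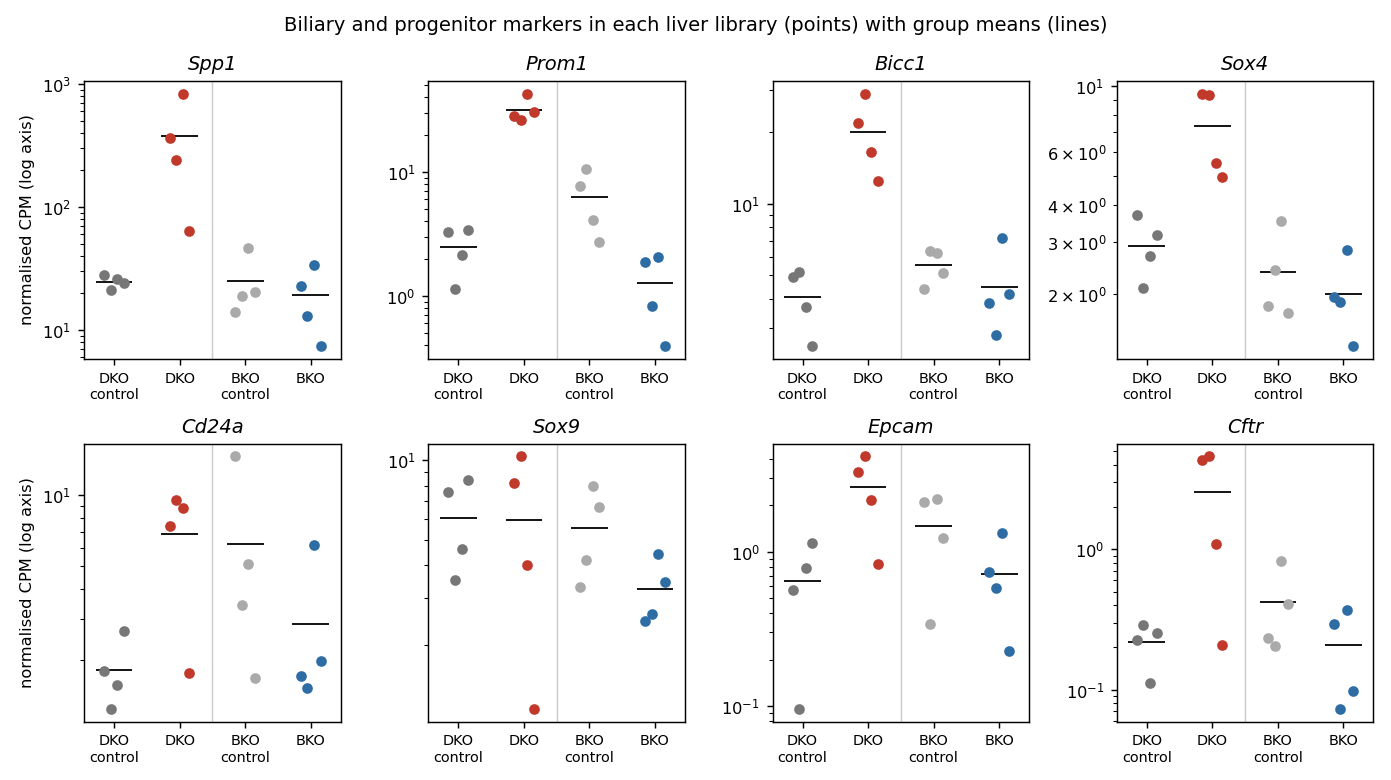
Normalised CPM on log axes for the 8 members in every library (points) and group mean (lines), with controls in grey, DKO in red and BKO in blue. DKO points lie above all their control points for Spp1, Prom1, Bicc1 and Sox4, whereas for Cd24a, Epcam and Cftr library DKO-7137 lies among the controls and for Sox9 the groups overlap.

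Among the surface proteins, Prom1 changed most evenly. It encodes prominin-1 (CD133), a membrane protein of cell protrusions used as a marker of progenitor cells. Prom1 was at 28, 26.2, 42.8 and 30.5 CPM in libraries DKO-7068, DKO-7070, DKO-7112 and DKO-7137, and at 3.25, 1.15, 2.13 and 3.41 CPM in control libraries WT-7067, WT-7069, WT-7114 and WT-7139. All 4 DKO libraries were higher than every control, and the highest DKO library was 1.63 times the lowest. The mean rose from 2.48 ± 1.06 to 31.9 ± 7.48 CPM (SD, n = 4), 12.8-fold, with a log2 fold change of 3.70 ± 0.30 (SE) and an edgeR adjusted p of 2.06e-05. The gene lies on chromosome 5 (43993620 to 44102032, minus strand, GRCm38), and 5.91% of its exon bases overlap the antisense gene Gm16401.

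Cd24a, which encodes a small sugar-rich surface protein anchored by lipid and used to mark biliary and progenitor cells, was at 7.39, 9.54, 8.79 and 1.76 CPM in the DKO libraries in the same order. Its controls were at 1.79, 1.24, 1.57 and 2.65 CPM. Libraries DKO-7068, DKO-7070 and DKO-7112 stood above every control and DKO-7137 lay inside the control range. Cd24a rose from 1.81 ± 0.60 to 6.87 ± 3.52 CPM, with a log2 fold change of 1.94 ± 0.48 and an edgeR adjusted p of 0.0107. With limma voom the adjusted p was 0.0574, and in a fit of all 16 libraries together it was 0.0538.

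Epcam encodes the epithelial cell adhesion molecule, which bile duct cells carry and mature hepatocytes lack. The DKO libraries held 40, 46, 20 and 8 counts of Epcam and their controls 5, 1, 7 and 9 counts. The levels were 2.61 ± 1.43 CPM in DKO livers and 0.644 ± 0.436 CPM in controls (SD, n = 4), and library DKO-7137 lay within the control range. The 114 counts against 22 give a ratio of 4.46 after scaling, with an exact 95% interval of 2.81 to 7.39 that covers counting error only. In edgeR without the filter on low counts, where Epcam could be tested, its log2 fold change was 2.04 with an adjusted p of 0.0201.

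Spp1 encodes osteopontin, a secreted phosphoprotein made by bile duct cells and also by activated macrophages. It was the most abundant member, at 367, 242, 837 and 63.5 CPM in the DKO libraries and at 28.1, 21.0, 26.0 and 24.1 CPM in their controls. Every DKO library was above every control, but the DKO values spread 13.2-fold, with DKO-7112 highest and DKO-7137 lowest. Spp1 rose from 24.8 ± 3.02 to 377 ± 331 CPM, 15.2-fold, and without library DKO-7112 the ratio was 9.03-fold. The log2 fold change was 3.93 ± 0.72 (SE), with an edgeR adjusted p of 0.00403. On chromosome 5 (104435118 to 104441050, plus strand, GRCm38), 18.75% of its exon bases are shared with Gm42793, an unclassified model on the same strand.

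The transcription factors parted. SOX4 acts with SOX9 in bile duct formation, and Sox4 was at 9.44, 9.36, 5.54 and 4.97 CPM in the DKO libraries and at 3.69, 2.1, 2.69 and 3.15 CPM in controls. The groups did not overlap, and DKO-7068 and DKO-7070 were the higher DKO libraries. Sox4 rose from 2.91 ± 0.68 to 7.33 ± 2.40 CPM, with a log2 fold change of 1.34 ± 0.28 and an edgeR adjusted p of 0.00401. Sox4 is a gene of 1 exon on chromosome 13 (28948919 to 28953713, minus strand), and 54.6% of its exon bases lie opposite the noncoding gene Gm26735. No source used here states whether counting used the strand, so reads of Sox4 and Gm26735 cannot be told apart.

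Sox9, the factor most used to mark biliary cells, was at 8.21, 10.3, 4.02 and 1.14 CPM in the DKO libraries and at 7.61, 3.53, 4.6 and 8.45 CPM in controls. The DKO values lay on both sides of the controls, with DKO-7070 above all of them and DKO-7137 below all of them. The means were 5.93 ± 4.14 and 6.05 ± 2.36 CPM (SD, n = 4), and the log2 fold change was -0.003 ± 0.57 (SE, edgeR adjusted p = 0.998). This error leaves room for a change in either direction. Sox9 was the 1 tested member not called. The gene is on chromosome 11 (112782224 to 112787760, plus strand).

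Bicc1 encodes an RNA-binding protein of ciliated epithelia whose loss gives cystic kidneys and bile ducts in mice. It was at 21.8, 28.9, 16.5 and 12.4 CPM in the DKO libraries and at 4.93, 5.16, 3.70 and 2.52 CPM in controls, with no overlap. The mean rose from 4.08 ± 1.22 to 19.9 ± 7.10 CPM, 4.88-fold (log2 fold change 2.27 ± 0.30 SE, edgeR adjusted p = 0.000309). On chromosome 10 (70922832 to 71159700, minus strand), 4.69% of its exon bases lie opposite 4930533K18Rik.

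Cftr encodes the apical chloride channel of cholangiocytes. Its counts were 53, 51, 10 and 2 in the DKO libraries and 2, 3, 1 and 2 in controls. Libraries DKO-7068 and DKO-7070 held most of the counts, and DKO-7137 was within the control range. The mean was 2.56 ± 2.24 CPM in DKO livers and 0.219 ± 0.0755 CPM in controls, and the 116 counts against 8 give a scaled ratio of 12.5 with an exact 95% counting interval of 6.12 to 29.6. In edgeR without the filter the log2 fold change was 3.47 with an adjusted p of 0.0166.

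The 4 DKO livers did not carry the markers to the same degree. Library DKO-7137 was the lowest DKO library for 7 of the 8 members, and Prom1 was the exception, lowest in DKO-7070. Over all genes tested, DKO-7137 was the lowest DKO library for 29.7%. Library DKO-7070 was highest for 5 members, DKO-7112 for Spp1 and Prom1, and DKO-7068 for Sox4. The SD of log2 CPM among DKO libraries ran from 0.31 for Prom1, 0.49 for Sox4 and 0.52 for Bicc1 to 1.43 for Sox9, 1.55 for Spp1 and 2.11 for Cftr. The members that varied least between DKO livers were thus Prom1, Sox4 and Bicc1, 3 of the 4 whose groups did not overlap.

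**Figure D2:**
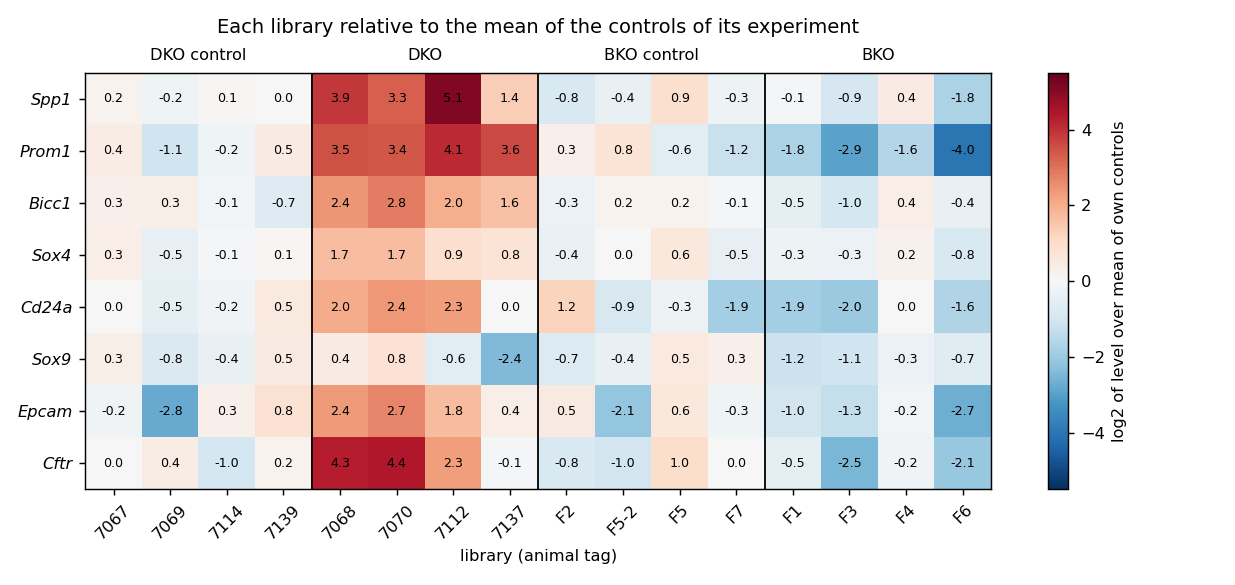
Log2 of each library's normalised CPM over the mean of the controls of its own experiment, with members as rows and the 16 libraries, named by animal tag, as columns. In library DKO-7137, Prom1 stands at 3.6, beside 1.4 for Spp1 and -2.4 for Sox9, while DKO-7068, DKO-7070 and DKO-7112 lie above their control mean for the 7 members other than Sox9.

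The DKO experiment holds 4 libraries with tags from WT-7067 to DKO-7070 and 4 with tags from DKO-7112 to WT-7139, with each group in both series. The labels do not say what the series means. The only DKO libraries with lower tags are DKO-7068 and DKO-7070, the pair closest to each other. Within the lower tags Sox9 had a log2 fold change of 0.74 (edgeR adjusted p = 0.370), and within the higher tags -1.34 (edgeR adjusted p = 0.166). The difference between these values was 2.08 ± 0.82 (SE), with an edgeR adjusted p of 0.888, so it was not past the threshold. Prom1 was at 3.65 and 3.73 within the lower and higher tags, Spp1 at 3.63 and 4.17 and Bicc1 at 2.32 and 2.20. The call held in both series for Prom1 and Bicc1, and in the higher tags alone for Spp1 (edgeR adjusted p = 0.0624 in the lower and 0.0497 in the higher). Sox4 stood at 1.71 in the lower tags (edgeR adjusted p = 0.00543) and 0.85 in the higher tags (0.0928), and Cd24a at 2.48 (0.0379) and 1.32 (0.226). For each of the 6 tested members the difference between the series had an edgeR adjusted p of at least 0.888.

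Markers of other cells moved in the same livers, and their part in the member results was not tested. Of the recruited macrophage list, 12 genes were tested, but 5 of them (Trem2, Gpnmb, Cx3cr1, Ly6c2 and Mmp12) passed the filter in DKO libraries alone and so had to be higher there. Of the other 7 genes 5 rose in DKO livers and none fell, with Cd63 first by p. The summed level of that list was 280 to 394 CPM in DKO libraries and 49.1 to 118 CPM in controls, highest in DKO-7112, the library with the highest Spp1. Of the stellate cell list, 6 of 10 genes rose, led by Pdgfrb, and 2 fell, Ecm1 and Lrat, with sums of 1664 to 2520 CPM against 522 to 699 CPM. Of 3 tested neutrophil genes, S100a8 and S100a9 likewise passed the filter in DKO libraries alone and the 1 other rose, with sums of 12.6 to 66.3 CPM, again highest in DKO-7112, against 3.03 to 6.40 CPM. Of 5 genes of proliferating cells 3 rose, and the other 2, Ccnb1 and Plk1, passed the filter in DKO libraries alone.

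Tissue taken along at dissection was looked for with further lists, and its part in the member results was not tested. None of the 7 tested pancreatic acinar genes was called, but their sums ran from 35.6 CPM in DKO-7112 to 517 CPM in DKO-7068, with 113 CPM in both other DKO livers, against 57.8 to 205 CPM in controls. In the BKO experiment the acinar sums were lower, at 3.51 to 4.90 CPM in BKO livers and 2.77 to 6.82 CPM in controls. Library DKO-7068, high in acinar genes, was above DKO-7070 for Spp1, Prom1 and Sox4 and below it for the other 5 members. None of the 2 tested gallbladder and gut genes was called, with sums of 12.2 to 13.1 CPM against 4.92 to 13.4 CPM. Of that list Gkn3 was at 0 in all DKO libraries, and Cdh17, Cldn18, Cdx2 and Guca2b were at 0 in all controls. The 1 tested mesothelial gene was not called, and the summed list was at 4.99 to 11.4 CPM against 2.24 to 7.16 CPM, highest in DKO-7137, the library lowest for most members. Of the 8 hepatocyte genes 5 fell and 1 rose in DKO livers.

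**Figure D3:**
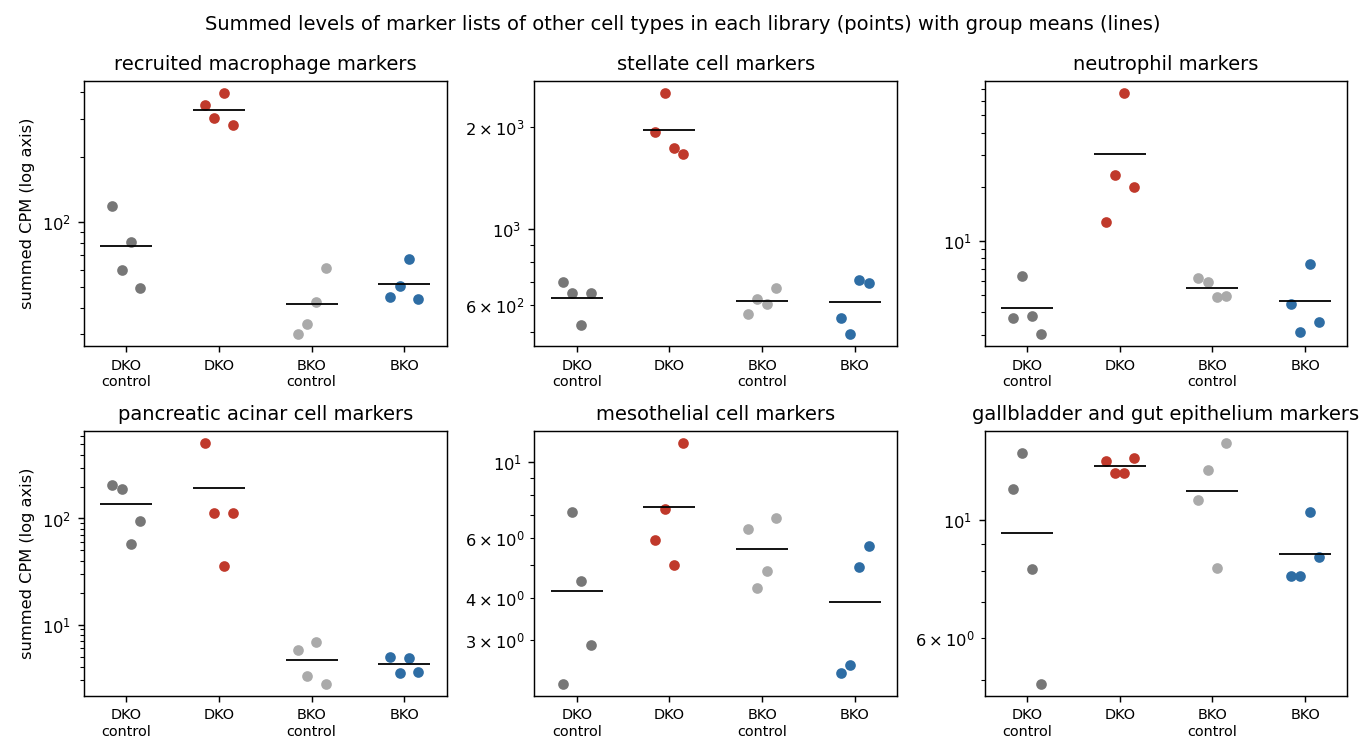
Summed normalised CPM (log axes) of marker lists of 6 other cell types in every library (points) with group means (lines). Recruited macrophage, stellate cell and neutrophil sums are higher in every DKO library than in every control, and acinar sums are spread within both groups of the DKO experiment.

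BKO livers did not show the DKO pattern. None of the 7 members tested was called, beside 0.583% of 14061 genes (0.185% higher and 0.398% lower). An unadjusted edgeR p under 0.05 was seen for 2 members, Prom1 and Sox9, and for 1636 of the 14061 genes. DESeq2's Wald test called 1 member, Prom1, and 355 genes in all. The mean of each of the 8 members was lower in BKO livers than in their controls, and the median log2 fold change of the 7 tested was -0.76, against 5.14e-05 over all genes. In the cell type lists, 0 genes were called in BKO livers by edgeR.

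Prom1 had the largest BKO value. It was at 1.86, 0.824, 2.05 and 0.391 CPM in BKO libraries F1, F3, F4 and F6 and at 7.64, 4.11, 10.6 and 2.73 CPM in control libraries F2, F5, F5-2 and F7. All 4 BKO libraries lay under every control, a separation in this direction that 3.36% of genes tested shared. The log2 fold change was -2.32 ± 0.58 (SE), from 6.28 ± 3.57 CPM in controls to 1.28 ± 0.80 CPM, with an edgeR adjusted p of 0.160 and a DESeq2 adjusted p of 0.000401. Prom1 was thus measured above its controls in DKO livers and below its controls in BKO livers, the second without passing the edgeR threshold.

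Sox9 was at 2.45, 2.62, 4.43 and 3.46 CPM in the BKO libraries and at 3.32, 7.95, 4.20 and 6.68 CPM in controls, with overlapping groups. Its log2 fold change was -0.76 ± 0.29 (SE, edgeR adjusted p = 0.336). Cd24a was at 1.72, 1.53, 6.14 and 1.99 CPM in BKO livers and at 14.6, 5.13, 3.42 and 1.68 CPM in controls. Its mean was 2.19-fold lower in BKO livers, 1.20-fold without control F2 and 3.56-fold without BKO library F4, with an edgeR adjusted p of 0.648. Single libraries thus set the size of the Cd24a value.

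The other members were closer to their controls or had few counts. Epcam had a log2 fold change of -1.03 ± 0.59 (SE, edgeR adjusted p = 0.559), Spp1 of -0.37 ± 0.57 (0.868), Bicc1 of -0.30 ± 0.27 (0.730) and Sox4 of -0.24 ± 0.31 (0.826). Spp1 ran from 7.37 to 33.8 CPM in BKO livers and from 13.9 to 46.2 CPM in controls. Cftr was not tested, at 0.208 ± 0.145 CPM and 0.418 ± 0.285 CPM in controls (SD, n = 4). Library F4 was the highest BKO library for all 8 members, where it was the highest for 29.4% of all genes tested.

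Whether a member responded differently to the pair of deletions was tested directly, as the DKO effect minus the BKO effect over all 16 libraries. This test contains the DKO comparison and adds no independent support to it. Cftr passed the filter of this fit through 3 DKO libraries and 1 BKO control, so it could enter only because it was high there and is left out of the count. Of the 7 other members, the effect was higher in DKO for 6, beside 22.5% of 14050 genes called in either direction and 11.0% in this one. Prom1 differed by 6.0 ± 0.71 (SE) on the log2 scale (edgeR adjusted p = 4.54e-05), the largest difference among the members. It includes a fall in BKO livers that was not called, with a log2 fold change of -2.32 (edgeR adjusted p = 0.160). The differences given here are thus not the sizes of the rises in DKO livers. Cftr differed by 4.51 ± 1.16 (0.00991), Spp1 by 4.27 ± 0.95 (0.00619) and Bicc1 by 2.54 ± 0.42 (0.000459).

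Epcam differed by 3.06 ± 0.94 (edgeR adjusted p = 0.0263), Cd24a by 3.04 ± 0.97 (0.0361) and Sox4 by 1.56 ± 0.43 (0.0141). With limma voom the adjusted p was 0.0847 for Cftr, 0.0732 for Epcam and 0.112 for Cd24a. The difference for Sox9 was 0.73 ± 0.67, with an edgeR adjusted p of 0.478. The experiments differed in depth and in the summed level of acinar genes, and were tabulated separately. Each effect is taken over controls of its own experiment.

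**Figure D4:**
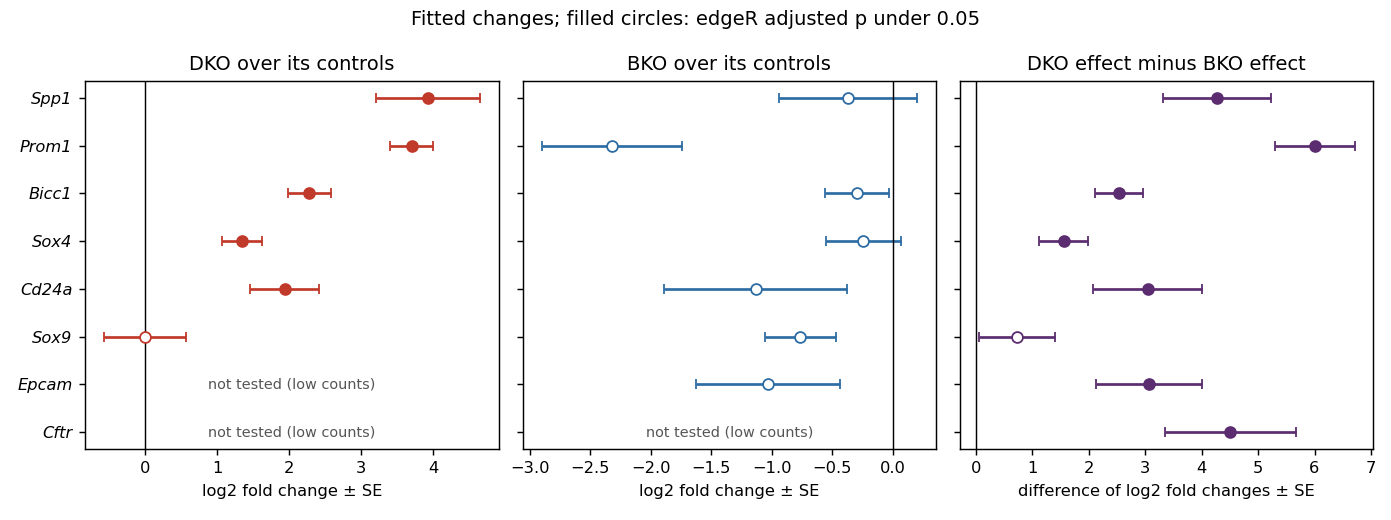
Log2 fold changes of DKO and of BKO over their own controls, and the difference between these effects, as points with SE bars, with filled points for an edgeR adjusted p under 0.05. The DKO panel has 5 filled points, the BKO panel 0 and the difference panel 7, Cftr included, and Sox9 is open in all 3.

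Levels of different genes were compared per kilobase of exon. In DKO controls Spp1 led at 15.1 ± 1.83 CPM per kilobase (SD, n = 4) and Sox9 came next at 1.46 ± 0.57. Cd24a, Sox4 and Bicc1 followed at 0.703 ± 0.233, 0.607 ± 0.141 and 0.548 ± 0.163, with overlapping ranges. Prom1 (0.346 ± 0.147) and Epcam (0.293 ± 0.199) overlapped each other, and Cftr was last at 0.0282 ± 0.0097. In DKO livers Prom1 moved from rank 6 to rank 2, at 4.44 ± 1.04 CPM per kilobase, behind Spp1 at 229 ± 201. Bicc1 (2.67 ± 0.95) and Cd24a (2.66 ± 1.36) were next and overlapped, as did Sox4 (1.53 ± 0.50), Sox9 (1.43 ± 1.00) and Epcam (1.19 ± 0.65). Sox9 moved from rank 2 to rank 6 with little change in its mean level, and Cftr stayed last at 0.329 ± 0.288. In BKO livers and their controls Spp1 was also first and Cftr last, and Prom1 stood at 0.179 ± 0.112 and 0.875 ± 0.497 CPM per kilobase.

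Other genes of the biliary programme were read from lists chosen by function, with earlier results of these data known. Their counts stand beside the 19.2% of all tested genes called higher and the 16.6% called lower in DKO. Both tested keratins rose in DKO livers, Krt18 from 70.7 ± 19.2 to 556 ± 33.2 CPM and Krt8 from 79.3 ± 18.9 to 373 ± 31.1 CPM (edgeR adjusted p = 7.17e-06 and 1.76e-05). Hepatocytes also express these keratins. The keratins of bile ducts proper, Krt7, Krt19 and Krt23, were too low to be tested in DKO, and Krt19 was at 2.41 ± 1.91 CPM against 0.798 ± 0.507 CPM.

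Of 10 transcription factors tested, Elf3 passed the filter in DKO libraries alone, and of the 9 others 2 rose and 0 fell, with a median log2 fold change of 0.15. This share of higher genes was close to that over all genes. Wwtr1 (TAZ) and Tead1, partners in the Hippo pathway, rose by 1.24 and 0.88 on the log2 scale (edgeR adjusted p = 6.81e-05 and 0.00027). Elf3, an epithelial ETS factor, was at 3.37, 2.97, 16.5 and 5.60 CPM in the DKO libraries and at most 0.449 CPM in any control.

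Of 13 Notch pathway genes tested, 8 rose and 1 fell, with a median log2 fold change of 0.85. Among the 8, Hey1 met the filter through 3 DKO libraries and 1 control, so its entry depended on its level in DKO livers. The receptor Notch3 rose from 6.86 ± 1.65 to 17.1 ± 0.972 CPM and the target Hes1 from 6.86 ± 2.28 to 17.0 ± 3.44 CPM (edgeR adjusted p = 0.000297 and 0.00184). The ligand Dll1 rose by 1.01 on the log2 scale and Notch4, a receptor of endothelial cells, by 0.85. The gene that fell was Notch1, named after its value was seen, from 81.9 ± 11.2 to 55.3 ± 4.78 CPM. Jag1, the ligand whose loss leaves livers short of bile ducts, was at 13.3 ± 4.49 and 10.6 ± 1.53 CPM (edgeR adjusted p = 0.312).

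Of 8 channels, transporters and receptors of cholangiocytes tested, Cftr aside, 4 fell, 1 rose and 3 were not called, with a median of -0.48. Whole liver RNA does not show which cells these transcripts came from. Slc10a2, the apical bile acid transporter, fell from 25.1 ± 5.39 to 6.03 ± 4.43 CPM (edgeR adjusted p = 0.0139). P2ry2, a nucleotide receptor, and Slc12a2, a basolateral chloride cotransporter, fell by 1.31 and 0.56 on the log2 scale. The calcium channel Itpr3 rose by 0.76. Of the untested genes Sctr, the secretin receptor, was near 0 in both groups, at 0.149 ± 0.173 and 0.0799 ± 0.0538 CPM.

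Of 11 surface and junction genes of bile ducts tested, Tspan8 passed the filter in DKO libraries alone, and of the 10 others 3 rose and 1 fell, with a median of 0.58. Tm4sf4 rose from 34.9 ± 4.06 to 198 ± 24.5 CPM (edgeR adjusted p = 2.31e-06), and the laminin receptor subunit Itga6 from 11.3 ± 2.02 to 26.6 ± 1.12 CPM (9.97e-05). Anxa4 rose by 0.42 on the log2 scale. Tspan8 was at 3.21 ± 2.29 CPM in DKO livers and 0.446 ± 0.190 CPM in controls. Lamb3 fell, by 1.13, with an edgeR adjusted p of 0.037, and was named after its value was seen.

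Of 9 progenitor and ductular reaction genes tested, 4 rose, with a median of 0.41. Among the 4, Ncam1 met the filter through 4 DKO libraries and 1 control, so its entry depended on its level in DKO livers. Tnfrsf12a, the receptor of the progenitor mitogen TWEAK, rose from 2.84 ± 1.03 to 10.9 ± 1.12 CPM (edgeR adjusted p = 0.000231), and Cd44, the hyaluronan receptor, by 1.33 on the log2 scale. Ncam1 rose by 2.57 on that scale. Lcn2, a secreted acute-phase protein, was at 126, 98.2, 1795 and 1118 CPM in the DKO libraries, which was not the order of Sox9 or Cftr. Afp, the fetal albumin-like protein, was at 6.64 ± 2.52 and 5.52 ± 0.978 CPM (edgeR adjusted p = 0.463).

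Primary cilium genes had 3 higher and 1 lower of 14, with a median of 0.32. The share of higher genes was close to that over all genes, and the share of lower genes was below it. The higher genes were Cys1 (1.49 on the log2 scale, edgeR adjusted p = 0.00491), Ank3 (0.68, 0.00577) and Ift88 (0.50, 0.0396), and the lower gene was Invs (-0.43, 0.0491). No gene of this list was called within the higher tags alone. Among 7 further SOX genes tested only Sox6 was called, lower at 29.1 ± 4.41 against 46.1 ± 2.66 CPM (edgeR adjusted p = 0.00194).

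In BKO livers 1 gene of all these lists was called, Spint2, an epithelial protease inhibitor, which fell from 53.3 ± 2.86 to 38.7 ± 1.68 CPM (edgeR adjusted p = 0.0288). In the test of the difference, 3 of 5 keratins, 4 of 12 transcription factors and 6 of 12 surface genes were higher in DKO. So were 4 of 11 progenitor genes and 3 of 14 cilium genes. None of these lists had a lower gene, beside 11.0% higher and 11.5% lower over all genes. Elf3 and Tspan8, counted here, met the filter mainly through all 4 DKO libraries, so their entry depended on their level there. Of 14 Notch genes 3 were higher and 1 lower, of 9 channels and transporters 1 was higher and 2 lower, and of 7 SOX genes 0 were higher and 1 lower. Krt19 entered this test, with a difference of 4.22 ± 1.21 (SE) on the log2 scale and an edgeR adjusted p of 0.0201. This difference includes a fall in BKO livers that was not called, with a log2 fold change of -2.63 (edgeR adjusted p = 0.296). It is thus not the size of a rise in DKO livers.

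**Figure D5:**
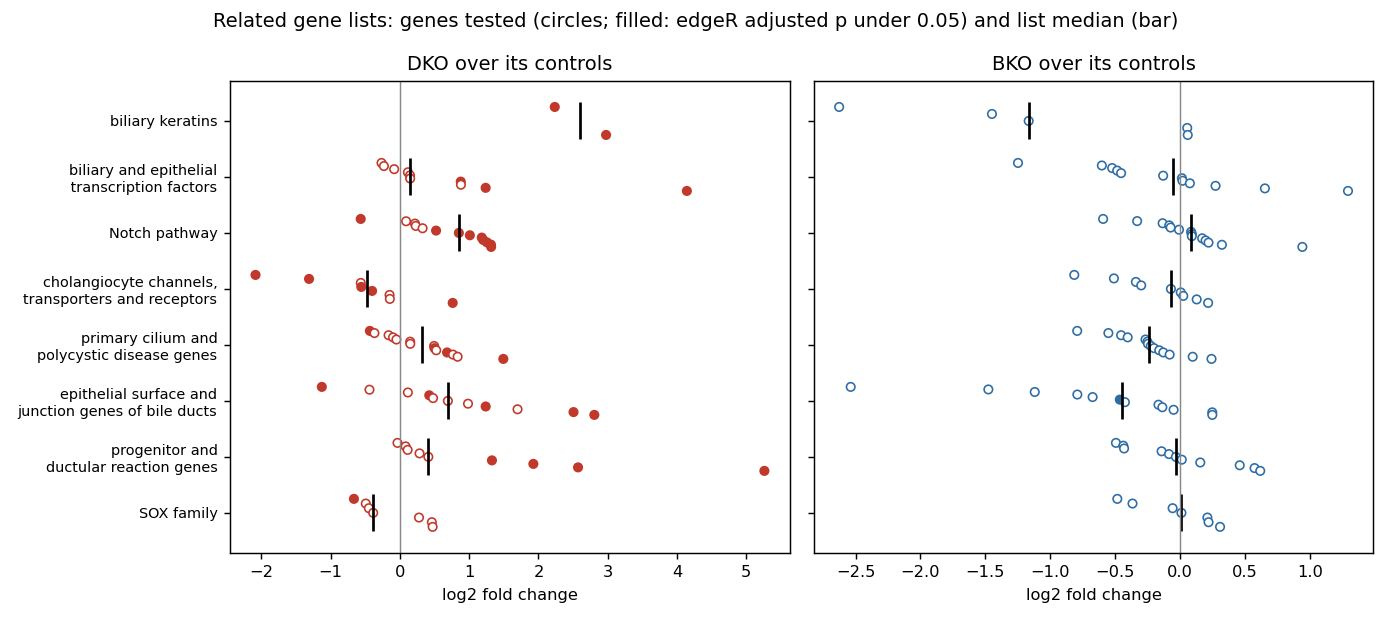
Log2 fold changes of every tested gene (circles, filled for an edgeR adjusted p under 0.05) in 8 related lists, with the list median as a bar, for DKO on the left and BKO on the right. In DKO the medians of keratins (2.61) and Notch genes (0.85) lie to the right of 0 and that of channels (-0.48) to the left, with single genes such as Notch1, Lamb3 and Itpr3 on the opposite side of 0 from their list, and in BKO 1 circle is filled.

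For the 5 members called in DKO, the genes with the most similar pattern were taken from 11257 genes by the root mean square difference of log2 change from own controls over all 16 libraries. Bicc1 was closest to Sema4d (0.246), Cygb (0.300) and H2-Ab1 (0.303). Sox4 was closest to Tcea3 (0.274), Gbp6 (0.279) and Csrp1 (0.288). Spp1 was closest to Spon2 (0.674), Tmem119 (0.803) and Ccr2 (0.806), the last of which is in the recruited macrophage list. Prom1 had no close partner, with Prrx1 at 0.935, Pls1 at 0.994 and Gpr35 at 1.05, and Cd24a was nearest to Lynx1 (0.712), Fermt1 (0.727) and Zfp90 (0.728). No member was among another member's candidates, since members were left out of the search.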

How the data were processed

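Liver RNA was extracted with TRIzol and RNeasy and prepared for sequencing with Ovation reagents (Nugen), per the labels' protocols. Each experiment was deposited as 1 table of whole, unscaled counts per gene. Per the submitters' processing notes, the tools include HISAT2 2.1.0, featureCounts 1.6.2 and Trim Galore 0.4.1, and the builds GRCm38, mm10 and GRCh38. Strand setting, annotation and handling of shared reads: not given in the sources used here. Among the BKO table's names 27 had become dates, and these were left out of the joint fit. No column was left unmapped (0).

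Tests used edgeR 4.0.16 under R 4.3.3 (filterByExpr, TMM, robust quasi-likelihood), each knockout against its own controls, and over 16 libraries for the difference of effects. SE is the log2 fold change over the square root of F. Alternatives used DESeq2 1.42.0, limma 3.58.1, other scalings and filters, summed or left-out libraries and single tag series, the last added after the data had been seen. That libraries are separate animals rests on their tags, which BKO controls F5 and F5-2 share, so p-values measure the spread between libraries. Members and lists were chosen with earlier results of these data known. Named list genes are up to 4 with the smallest adjusted p of each list, and others are given as uncalled examples. Not every called list gene is named, and 1 gene is not reported here. Exon lengths and coordinates are from GENCODE M21. The steps were tested on simulated counts.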

Additional observations from a re-analysis of the deposited data

Results flagged for a closer look

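The BKO effect and the DKO effect differed by the test of the difference itself for 7 members. The log2 differences were 3.06 for Epcam, 4.27 for Spp1, 6.0 for Prom1, 2.54 for Bicc1, 4.51 for Cftr, 1.56 for Sox4 and 3.04 for Cd24a, each higher in DKO. Cftr could enter this test only through libraries in which it was high.

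For Cd24a in BKO livers, library F4 stood apart at 6.14 CPM, where the next library was at 1.99 CPM. It was the 1 case among 32 combinations of gene and group that passed Dixon's 95% limit, which chance passes in about 1 group in 20.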

How the results depend on the processing

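Of the DKO values, Sox9 changed sign most, as its value lies at 0. It was 0.23 with scaling to total counts only and 0.74 within the lower tags, and between -0.42 and 0.33 when single libraries were left out. Over the same left-out libraries 5 to 7 members were called, against 5, and 3 were called within the higher tags. Counts above 5 include Epcam or Cftr, which the filter admitted when a smaller group lowered the number of libraries required. In the main fit both reached its level in 3 DKO libraries and 0 controls. They could thus enter only by being high in DKO livers, and these counts add no support. Over all genes 4604 were called, 2977 within the lower tags and 2588 within the higher tags. Epcam and Cftr, reported without the filter, could be fitted in only 8 and 6 alternatives, against 19 for the other members. There they had adjusted p of 0.0071 to 0.0552 and 0.00127 to 0.0454, and the Epcam call was lost without control WT-7067 (0.0552). In the fits of the DKO experiment alone, entry depended on high counts in DKO livers, so these ranges do not check the rise. The calls of Ift88, Invs and Lamb3 were lost in 7, 5 and 6 of the 8 left-out libraries, with adjusted p up to 0.118, 0.115 and 0.0998, that of Spint2 in BKO in 6 of 8 (up to 0.114), and those of Hey1 and Nrarp among the Notch genes and of Slc9a3r1 among the channels in 6, 4 and 3 of 8 (up to 0.102, 0.0902 and 0.0554). Over their alternatives, 4 to 9 Notch genes (9 reported), 1 to 5 channels (5), 0 to 6 cilium genes (4), 3 to 7 surface genes (5), 4 to 7 progenitor genes (4) and 1 to 2 SOX genes (1) were called, and within the higher tags alone 4 Notch genes and 1 channel were.

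In BKO, DESeq2's Wald test called 1 member and 355 genes, against 0 and 82 with edgeR, a fit of all 16 libraries called 50 genes, and leaving out single libraries gave 17 to 104. Without control F5, Spp1 was at 0.11 and Sox4 at 0.0037, and over all left-out libraries they ran from -0.80 to 0.11 and from -0.46 to 0.0037. Arid1a was at -0.0095 with total counts only. The test of the difference called 4 members with limma voom, against 7 with Cftr included, and 5 to 7 with single libraries left out. Cd24a was the least stable there, with an adjusted p up to 0.112, and it was lost in 10 of the 16 left-out libraries. Epcam was lost there without DKO-7068 (0.0502), DKO-7070 (0.0601), WT-7067 (0.0510), F2 (0.0525) and F5 (0.0522). There, 2 to 6 transcription factors (4 reported), 2 to 6 Notch genes (4), 2 to 6 cilium genes (3) and 3 to 8 surface genes (6) were called, with 3 surface genes without DKO-7070 and 2 Notch genes without WT-7069 or WT-7114. With F5 and F5-2 summed, 0 members were called in BKO and 7, Cftr included, in the difference. The causes were not tested.

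No paired analysis was possible because the groups share no replicate numbers. Low counts limit Cftr and Epcam most.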

Other observations

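Some further epithelial genes, picked after their values were seen, were higher in libraries DKO-7068 and DKO-7070 than in DKO-7112 and DKO-7137. Krt19 was at 4.52, 3.51, 0.977 and 0.622 CPM in DKO-7068, DKO-7070, DKO-7112 and DKO-7137, Cldn7 at 2.38, 2.52, 0.868 and 0.207 CPM, and Ehf at 3.20, 3.96, 1.41 and 0.311 CPM. Cftr and Epcam had the same pair of libraries on top. Elf3, an epithelial factor too, ran the other way, at 3.37, 2.97, 16.5 and 5.60 CPM. Krt18 was even over the 4 libraries, at 558, 540, 524 and 601 CPM.

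In BKO control F2 several of these genes were at their highest of the 4 controls. Cd24a was at 14.6 CPM there, Krt19 at 7.88 CPM, Ehf at 4.47 CPM, Elf3 at 2.0 CPM and Tspan8 at 1.62 CPM. Sox9 and Spp1 were at their lowest of the controls in the same library, at 3.32 and 13.9 CPM.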
